A study of Mus musculus with 4 samples.

Results

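Prpf8 and 9 other genes for core proteins of the spliceosome were measured by RNA sequencing of the first pharyngeal arch in mouse embryos. They are the rows with the symbols Prpf8, Snrnp200, Eftud2, Prpf6, Txnl4a, Prpf3, Sf3b1, Sf3b3, Sf3b4 and Snrpb, which are 10 of the 52459 genes listed and 10 of the 16746 genes tested. Prpf8 was chosen by its normalized reads in these libraries, which were lower in the transgenic ones, so its difference is given as a description with no test. Eftud2, Sf3b4 and Snrpb were picked because changes in the human genes cause facial syndromes, and the other 6 belong to the same particles.

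The arch was taken at E9.5 to E9.75, at 25 to 27 somites, from wild-type embryos (2 libraries) and from Wnt1-Cre;pMes-Bmp4 embryos (2 libraries). In the second genotype the Cre recombinase of the Wnt1-Cre line, which is active in the dorsal neural tube and in neural crest that leaves it, switches on the pMes-Bmp4 transgene. The control group is labelled wild-type and none is labelled Wnt1-Cre alone, so effects of Bmp4 and of the Cre line cannot be told apart. The sources used here do not say whether a library came from a single embryo or from several, nor that libraries 1 and 2 of a group came from separate litters. The spread behind each p-value is thus that of these libraries alone and may be technical. In whole-arch RNA fewer cells of a type and less RNA per cell cannot be told apart.

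The spliceosome removes introns from pre-mRNA. It is built on small nuclear ribonucleoprotein particles (snRNPs), each a short RNA with a ring of Sm or LSm proteins and proteins of its own. The U1 and U2 snRNPs mark the ends of the intron, the U4/U6.U5 tri-snRNP joins them, and the Prp19 complex helps to form the catalytic centre. All cells need these proteins, yet inherited changes in several of them affect mainly the face or the retina. Human EFTUD2 is the gene of mandibulofacial dysostosis with microcephaly, SF3B4 of Nager syndrome, SNRPB of cerebrocostomandibular syndrome and TXNL4A of Burn-McKeown syndrome. PRPF8, SNRNP200, PRPF6 and PRPF3 are genes of retinitis pigmentosa.

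Reads assigned to genes ranged from 29607541 to 47849092 per library. Crest mesenchyme markers were present in every library (9 of 9 tested, 2 of them called higher in the transgenic group and 0 lower). They summed to 21990 and 28233 in wild-type and 34165 and 25632 in the transgenic libraries. Twist1 of this list went the other way, with 3324 and 4162 in wild-type and 2556 and 2121 in the transgenic libraries. Its log2 fold change of -0.68 just missed the threshold (limma adjusted p 0.0502). The Hox genes of more posterior arches stayed under 10 normalized reads in all 4 libraries (Hoxa2, Hoxb2, Hoxa3 and Hoxb1). The libraries of the transgenic group differed from each other by at least 4-fold in 180 of 12409 genes, 162 of them higher in library 2, against 20 genes for the wild-type pair. None of the 10 members was among them. Erythroid markers, 5 tested with 2 lower, summed to 672448 and 611758 in the wild-type libraries and to 339736 and 379380 in the transgenic ones. Epithelial markers, 5 tested with 2 higher and Krt5 under 10 throughout, summed to 17901 and 13560 in the wild-type libraries and to 25106 and 23332 in the transgenic ones. Neuron and ganglion markers (1 of 5 higher) summed to 1418 and 980 against 2264 and 2018, and cranial mesoderm and muscle markers (0 of 5 called in limma) to 2675 and 2572 against 3661 and 3498. Glial crest markers had 1 of 4 higher, and the endothelium, neural tube and heart lists had 0 called in limma. The part of these shifts in the results below was not tested.

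Upstream sequence is shown for the members that lay lower in both transgenic libraries, Prpf8, Snrnp200 and Sf3b1. It is also shown for 1 of those that lay higher, Prpf6. Each run is the 250 bases before the RefSeq start site on GRCm38.p6, 5′ to 3′ on the strand of the gene. The runs lie at chr11:75486527-75486776 (Prpf8, plus strand), chr2:127208136-127208385 (Snrnp200, plus), chr1:55027479-55027728 (Sf3b1, minus) and chr2:181601069-181601318 (Prpf6, plus). The Prpf6 run lies within the span of that gene in the GENCODE annotation, 181591868 to 181655660. It is upstream of the RefSeq start site only. Capitals mark matches on either strand, so that a match on the other strand shows its reverse complement, to any of 7 promoter motifs. These were CCAAT of NF-Y, GGGCGG of Sp1, CCGGAAG of ETS factors, the NRF1 palindrome, CACGTG of the E box, the TATA box as TATAAA, and the palindrome GGCGCC bound by Smads.
Prpf8: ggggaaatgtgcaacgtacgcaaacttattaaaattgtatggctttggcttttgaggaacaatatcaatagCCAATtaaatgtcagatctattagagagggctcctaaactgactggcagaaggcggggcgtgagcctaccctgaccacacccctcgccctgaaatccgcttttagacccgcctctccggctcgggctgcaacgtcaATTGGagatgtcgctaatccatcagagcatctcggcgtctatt
Snrnp200: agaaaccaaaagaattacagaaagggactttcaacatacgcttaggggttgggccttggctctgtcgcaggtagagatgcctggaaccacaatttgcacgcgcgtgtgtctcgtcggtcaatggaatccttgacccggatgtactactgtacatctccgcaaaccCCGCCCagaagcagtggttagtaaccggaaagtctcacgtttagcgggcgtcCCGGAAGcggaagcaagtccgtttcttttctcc
Sf3b1: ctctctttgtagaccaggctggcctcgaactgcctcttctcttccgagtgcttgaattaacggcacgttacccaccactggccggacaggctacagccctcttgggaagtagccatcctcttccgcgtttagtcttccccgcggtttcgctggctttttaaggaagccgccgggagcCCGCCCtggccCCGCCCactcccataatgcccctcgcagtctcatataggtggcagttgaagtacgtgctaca
Prpf6: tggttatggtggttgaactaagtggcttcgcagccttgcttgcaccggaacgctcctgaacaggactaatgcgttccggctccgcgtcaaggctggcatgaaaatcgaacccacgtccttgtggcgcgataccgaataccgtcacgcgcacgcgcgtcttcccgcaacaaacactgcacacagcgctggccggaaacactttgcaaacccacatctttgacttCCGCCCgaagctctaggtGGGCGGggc
Prpf8 had 2 matches to CCAAT, at 179 to 175 and 43 to 39 bases upstream. Snrnp200 had 1 match to GGGCGG and 1 to CCGGAAG, Sf3b1 had 2 to GGGCGG and Prpf6 had 2 to GGGCGG. Sf3b3, whose run is not printed, also lay higher in both transgenic libraries. It had matches to CCAAT (152 to 148 bases upstream), CCGGAAG (229 to 223) and TATAAA (96 to 91). CCAAT and CCGGAAG were thus not confined to members that lay lower. No motif was shared by the 3 genes that lay lower, and none of the printed matches overlap. Of 32851 upstream runs of the same length, 33.8% hold CCAAT, 32.7% GGGCGG, 6.91% CCGGAAG, 0.782% the NRF1 palindrome, 6.02% CACGTG, 12.4% TATAAA and 9.59% GGCGCC. GC content was 49.6% for Prpf8, 52.4% for Snrnp200 and 58.4% for both Sf3b1 and Prpf6, beside a median of 52.4%. The promoter table held 6 of the 10 members, with Prpf3 and Sf3b3 besides those shown; Eftud2, Sf3b4, Snrpb and Txnl4a were not matched.

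Prpf8, the largest spliceosomal protein and the scaffold around the catalytic centre, had 5596.5 and 6416 normalized reads in the wild-type libraries and 2374 and 2357 in the transgenic ones. Both transgenic libraries lay far below both wild-type libraries, and they differed from each other by less than the wild-type libraries did. The means were 6006 ± 579 and 2366 ± 12.1 (SD, n = 2 each), 2.53-fold lower in the transgenic group, with a log2 fold change of -1.34. The gene lies on the plus strand of chromosome 11 at 75486816 to 75509449 of GRCm38 and has 42 exons in its coding transcript of 7442 bases. None of its exon bases are shared with another annotated gene. Across 20 alternative ways of processing the values the log2 fold change ran from -1.44 to -0.81.

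Snrnp200, the helicase that unwinds U4 from U6 and is regulated by Prpf8, fell 1.54-fold. It had 3187 and 3453 normalized reads in the wild-type libraries and 2219 and 2095 in the transgenic ones, so the groups did not overlap. The log2 fold change was -0.62 ± 0.13 (SE, n = 2 each), with a limma adjusted p of 0.0361. Counting Prpf8, whose call follows from its choice, 2 of 10 members were past the threshold of 0.05 as lower and 0 as higher, beside 5.28% lower and 2.97% higher of all genes tested. At an unadjusted p under 0.05 in limma 3 members, Prpf8 among them, were lower and 1 was higher. All genes gave 4816 of 16746 in either direction. edgeR on the recovered reads gave 2 members lower and 0 higher, beside 5.46% and 2.44% of all genes. DESeq2 gave 3 and 0, beside 11.1% and 8.72% of the genes it tested. The transgenic libraries both lay below the wild-type ones in 3 of 10 members and both above in 3, beside 29.7% and 30% of all genes. The Snrnp200 call was lost without wild-type replicate 1 (log2 fold change -0.68, limma adjusted p 0.177). It was also lost when the other wild-type library was left out (-0.56, limma adjusted p 0.432), and in neither case did any member pass. The coding transcript of Snrnp200, on chromosome 2 at 127208386 to 127240451, is 6745 bases long with 45 exons.

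The other 3 proteins of the U5 snRNP among the members did not follow Prpf8 and Snrnp200 downward. Eftud2, the GTPase beside Prpf8 that helps to drive rearrangements of the spliceosome, had 4753 and 4452 normalized reads in the wild-type libraries and 5791 and 5764 in the transgenic ones. Both transgenic libraries lay above both wild-type libraries, but the log2 fold change of 0.33 (95% interval 0.05 to 0.61) did not pass after adjustment (limma unadjusted p 0.0279, adjusted p 0.126). Of the exon bases of Eftud2, on chromosome 11 at 102838473 to 102880985, 26.9% are shared with the predicted gene Gm26668, and whether reads were counted by strand is not stated. Prpf6, which bridges U5 and U4/U6 in the tri-snRNP, read 2367 and 2359 in wild-type and 2609 and 2600 in the transgenic group. The libraries of each group were nearly equal and the groups did not overlap, at a log2 fold change of 0.14 (95% interval -0.15 to 0.43, limma adjusted p 0.491). Txnl4a, the small thioredoxin-like protein of U5, read 6366 and 5731 in wild-type and 6348 and 8014 in the transgenic group. The groups overlapped, and transgenic library 2 was the highest of the 4. Its log2 fold change was 0.24 (95% interval -0.12 to 0.60, limma adjusted p 0.338). Its size rested on the library: it was 0.41 with transgenic library 1 left out (limma adjusted p 0.0225) and 0.07 with transgenic library 2 left out (limma adjusted p 0.8). In such fits the lone transgenic library is assumed to vary like the wild-type pair, and many more genes are called: 16.2% lower and 16% higher of all genes without library 1, and 11.4% and 7.17% without library 2. A call gained there is therefore not read as support for a member.

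**Figure D1:**
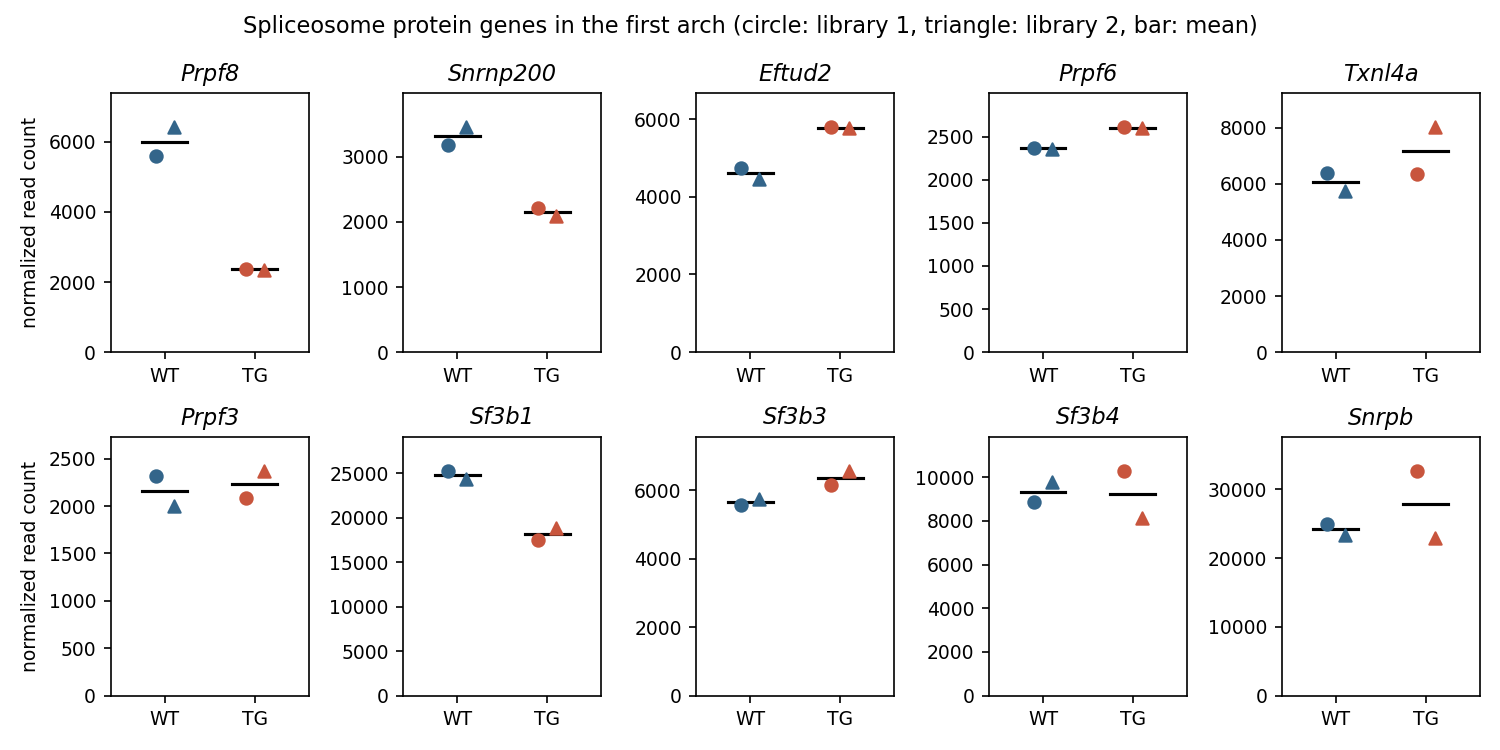
Normalized read count (vertical axes, from 0) of the 10 genes in wild-type (WT, blue) and Wnt1-Cre;pMes-Bmp4 (TG, red) libraries; circles are library 1, triangles library 2 and bars group means of 2. Prpf8 goes from 5596.5 and 6416 to 2374 and 2357, Snrnp200 and Sf3b1 also lie lower in both transgenic libraries, and Prpf3, Sf3b4, Snrpb and Txnl4a overlap between the groups.

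Prpf3, a protein of the U4/U6 particle, had 2312 and 2005 normalized reads in the wild-type libraries and 2090 and 2373 in the transgenic ones. The groups overlapped, and the log2 fold change of 0.05 (95% interval -0.29 to 0.39) did not pass (limma adjusted p 0.849). The gene lies on chromosome 3 at 95830124 to 95855885.

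Among the proteins of SF3b, the part of the U2 snRNP that holds the branch site, Sf3b1 lay lower and the other 2 members did not. Sf3b1, the large subunit that clamps the branch-site helix, read 25291 and 24325 in wild-type and 17548 and 18907 in the transgenic group. The groups did not overlap, and the log2 fold change of -0.45 ± 0.12 (SE, n = 2 each) missed the threshold with a limma adjusted p of 0.0647. With transgenic library 1 left out it was -0.39 (limma adjusted p 0.0253) and with transgenic library 2 left out -0.50 (limma adjusted p 0.00622), both with 1 lone transgenic library. With wild-type library 1 or 2 left out it was -0.42 and -0.47 (limma adjusted p 0.339 and 0.484). Quantile scaling (limma adjusted p 0.0349) and DESeq2 (adjusted p 0.00732) also called it lower. Sf3b3, the beta-propeller subunit, read 5566 and 5736 in wild-type and 6145 and 6575 in the transgenic group. Both transgenic libraries lay higher, at a log2 fold change of 0.17 (95% interval -0.11 to 0.45, limma adjusted p 0.388). Sf3b4, the RNA-binding subunit of Nager syndrome, read 8867 and 9796 against 10301 and 8136. The transgenic libraries lay on both sides of the wild-type ones, with a log2 fold change of -0.03 (95% interval -0.38 to 0.33, limma adjusted p 0.926).

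Snrpb, which encodes the SmB protein of the ring shared by U1, U2, U4 and U5, had 24987 and 23430 normalized reads in the wild-type libraries and 32716 and 22905 in the transgenic ones. Transgenic library 1 was the highest of the 4 and library 2 the lowest. The log2 fold change of 0.18 (95% interval -0.25 to 0.60) did not pass (limma adjusted p 0.55). Its size depended on the library: it was 0.44 with transgenic library 2 left out (limma adjusted p 0.0204) and -0.079 with transgenic library 1 left out (limma adjusted p 0.723), again with 1 lone transgenic library. SmN, encoded by Snrpn, is a close relative, so reads of the shared sequence are of uncertain origin. The 4 genes whose human forms cause facial syndromes, Eftud2, Sf3b4, Snrpb and Txnl4a, gave 0 calls in limma, edgeR or DESeq2, with Eftud2 past an unadjusted p of 0.05 in limma, and their intervals allow changes of up to 0.61 upward and 0.38 downward on the log2 scale. After the correction for transcript length described below, those limits were 0.69 upward (Txnl4a) and -0.63 downward (Sf3b4).

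Levels of different genes were compared as normalized reads per kilobase of the longest coding transcript. In wild-type, Snrpb was highest at 20851.5 ± 949 (SD, n = 2), followed by Sf3b4 at 4873 ± 343 and Sf3b1 at 4004 ± 110. Txnl4a at 1483 ± 110 and Eftud2 at 1378.5 ± 63.7 overlapped between libraries, and Sf3b3 at 1249 ± 26.6 lay just below. Prpf8 at 807 ± 77.9, Prpf6 at 774 ± 1.73 and Prpf3 at 736 ± 74.1 could not be ordered, and Snrnp200 was lowest at 492 ± 27.8. The order of the first 6 was the same in the transgenic group. Prpf8 was then the lowest of the 10 at 318 ± 1.62 per kilobase, not separable from Snrnp200 at 320 ± 13 (SD, n = 2 each). The level of Prpf8 per kilobase relative to Eftud2, its neighbour in U5, was 0.528 and 0.647 in the wild-type libraries and 0.184 and 0.183 in the transgenic ones. Relative to Snrnp200 it was 1.59 and 1.68 in wild-type and 0.969 and 1.02 in the transgenic group. The remaining members lie on chromosome 2 at 181591868 to 181655660 (Prpf6) and 130171414 to 130179403 (Snrpb), chromosome 18 at 80206795 to 80225855 (Txnl4a), chromosome 1 at 54985169 to 55027481 (Sf3b1), chromosome 8 at 110810239 to 110846787 (Sf3b3) and chromosome 3 at 96172332 to 96177564 (Sf3b4). The ratios above take Prpf8's own level, which chose it, and are a description. They come from values without the length correction described below, and the Prpf8 transcript has 7442 bases against 3339 for Eftud2.

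Transcript length moved with these differences. Genes were compared in 6 length classes where their mean was 50 or more. Those with a longest transcript over 6000 bases had a median log2 fold change of -0.53, and 26.2% of the 1753 were called lower, while the median was 0.22 for transcripts of 1001 to 2000 bases. Prpf8, Snrnp200 and Sf3b1 are the 3 members over 6000 bases, and the other 7 have transcripts of 1711 to 4525 bases. Of the 1753 long genes, 755 had a lower log2 fold change than Snrnp200 and 994 a lower one than Sf3b1, so these lay near the middle of their length class. For Prpf8 the number was 67, a rank that follows from its choice. Spearman's rho with length over 12178 genes, which are not independent, was -0.394 for transgenic minus wild-type. Length also moved with the difference between libraries of 1 group: rho was 0.284 for wild-type 2 minus 1 and -0.192 for transgenic 2 minus 1. What lies behind the length trend was not tested.

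**Figure D2:**
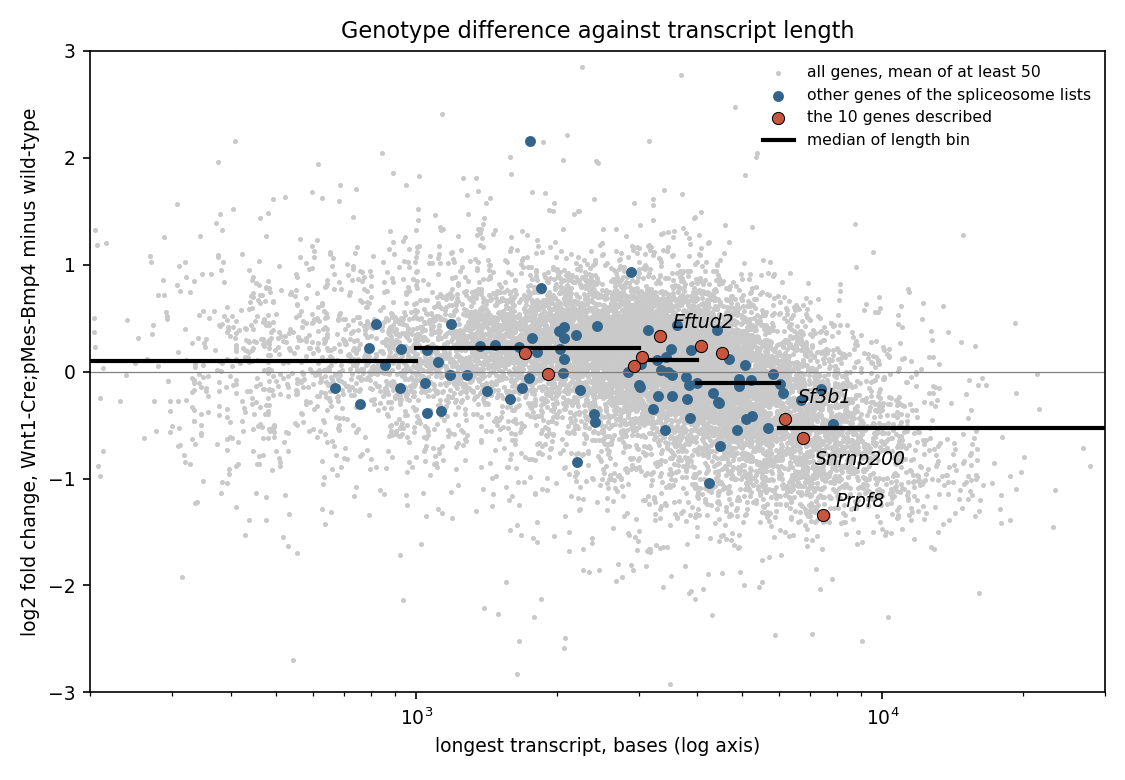
Log2 fold change (Wnt1-Cre;pMes-Bmp4 minus wild-type) against the longest transcript in bases (log axis) for genes whose mean was 50 or more; red points are the 10 genes, blue points other genes of the spliceosome lists, black bars medians of 6 length classes, and 49 genes lie outside the axes. Snrnp200 and Sf3b1 lie beside the median of -0.53 of the longest class, and Prpf8, chosen for its fall, is at -1.34.

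A correction for transcript length, which subtracts from each library a smooth curve of its deviations on length, changed the 3 longest members most. For Prpf8 the log2 fold change went from -1.34 to -0.88, a 1.84-fold lower level, and stayed below 0 in all 3 corrections tried. Snrnp200 went from -0.62 to -0.22 (95% interval -0.51 to 0.08) and no longer passed, with a limma adjusted p of 0.333. Sf3b1 went from -0.45 to -0.09 (95% interval -0.43 to 0.24, limma adjusted p 0.733). After the correction 0 of the 9 members other than Prpf8 passed in either direction in limma, while 0.998% of 16225 genes were lower and 0.659% higher. Prpf8 itself was past the threshold, from which nothing is read since its fall in these libraries chose it. With this correction none of those 9 was past an unadjusted p of 0.05 in limma. Sf3b3 was then at 0.30 (95% interval -0.01 to 0.60), Eftud2 at 0.23 (-0.06 to 0.53) and Txnl4a at 0.28 (-0.12 to 0.69), and none of these passed (limma adjusted p 0.226, 0.309 and 0.359). Snrpb at -0.03, Sf3b4 at -0.24, Prpf3 at -0.11 and Prpf6 at 0.00057 also did not pass. The correction on summed exon length gave other sizes, with Prpf8 at -1.15. Eftud2 was at 0.57, Sf3b3 at 0.52 and Snrnp200 at -0.41 (limma adjusted p 0.056, 0.0648 and 0.0992), none past the threshold. At an unadjusted p under 0.05 in limma it had 2 members lower, Prpf8 among them, and 2 higher, beside 4208 of 16225 genes. The length and GC correction had 1 lower, Prpf8, and 2 higher at that limit, beside 4470 of 16225 genes.

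**Figure D3:**
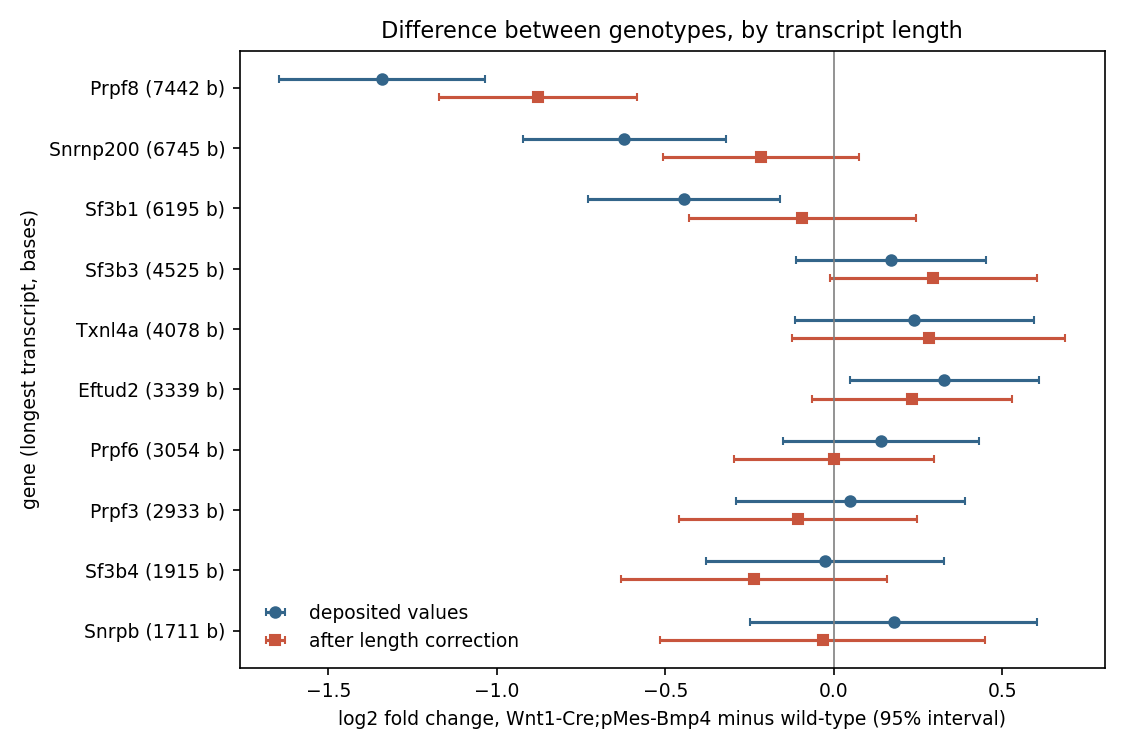
Log2 fold change with 95% interval (horizontal axis) of the 10 genes, ordered by longest transcript, from the deposited values (blue circles) and after length correction (red squares). The 3 longest transcripts lie left of 0 in the deposited values; after correction Prpf8 stays at -0.88 while Snrnp200 and Sf3b1 have intervals that include 0, and the interval of Prpf8 is a description since its fall chose it.

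Among genes whose mean was 50 or more, the 5 whose centred log2 profile over the 4 libraries lay nearest to that of Prpf8 were Fam120a, Mgat4a, Gnaq, Zfp217 and Crebbp, at Euclidean distances of 0.072 to 0.0916. Crebbp encodes the CBP acetyltransferase and Gnaq a G protein alpha subunit. Fam120a read 1998 and 2432 in wild-type and 893 and 855 in the transgenic group. In all, 102 genes lay within a distance of 0.25, out of 11104 compared over 4 libraries. These 5 genes have longest transcripts of 5105 to 10820 bases. Among the other members Snrnp200 was nearest to Prpf8, at rank 1180, and Eftud2 was farthest, at rank 8137.

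Over all 10 lists of spliceosome genes, which hold the members too, 5 of 93 genes tested were lower and 2 were higher. These counts stand beside 5.28% and 2.97% of all genes tested, and the median log2 fold change was -0.04 beside 0.02 for all genes. The list as a whole was therefore near the background. Besides Prpf8 and Snrnp200, the genes that fell were Luc7l2, Aqr and Ddx46, and the genes that rose were Plrg1 and Prpf38a. Without wild-type replicate 1 none passed (0 lower, 0 higher of 93 in limma, with 13 at an unadjusted p under 0.05), and likewise without wild-type replicate 2 (0 and 0, with 6). With transgenic library 1 left out the counts were 17 lower and 15 higher, beside 16.2% and 16% of all genes, and with transgenic library 2 left out they were 13 and 4, beside 11.4% and 7.17%. The 8 spliceosome genes over 6000 bases had a median log2 fold change of -0.36 and the 21 of 1001 to 2000 bases one of 0.09.

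The lists from which the members come, and the LSm ring, held no further call in limma. In the U5 list 2 of 8 were lower, both of them members. In the U4/U6 and tri-snRNP list 0 of 8 passed in limma, edgeR or DESeq2, 1 was past an unadjusted p of 0.05 in limma, and the median log2 fold change was -0.06. Prpf31, whose human form is a retinitis pigmentosa gene, was at 0.39 (limma adjusted p 0.117) and Sart1 at -0.44 (limma adjusted p 0.261). Sart1 read 1749 and 2060 in wild-type and 1784 and 1095 in the transgenic group, so only transgenic library 2 was low, and the value ran from -0.79 to -0.09 with a library left out. In the SF3b and SF3a list 0 of 12 passed in limma or edgeR and 2 in DESeq2, 2 were past an unadjusted p of 0.05 in limma, and the median was -0.02. Sf3a2 read 1506 and 1880 in wild-type and 1165 and 749 in the transgenic group, a log2 fold change of -0.85 with a limma adjusted p of 0.0641, and 16.1% of its exon bases are shared with Plekhj1. Of the Sm core 0 of 8 passed in limma or edgeR and 2 in DESeq2 (limma unadjusted 2, median -0.05), with Snrpg at -0.39 and Snrpn at 0.42 (limma adjusted p 0.0981 and 0.0865). Of the LSm ring 0 of 7 passed in limma or edgeR and 1 in DESeq2 (limma unadjusted 2, median -0.23), with Lsm7 at -0.37 and Lsm5 at -0.30 (limma adjusted p 0.0971 and 0.165). DESeq2 on the recovered reads called 12 of the spliceosome genes lower and 6 higher, beside 11.1% and 8.72% of all genes it tested. Sf3a2, Snrpg, Lsm7 and Snrpn were among those called. At an unadjusted p under 0.05 in limma, all genes gave 4816 of 16746 in either direction.

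Among factors of early and late steps the calls were few and went both ways. All genes gave 5.28% lower and 2.97% higher in limma, and 11.1% and 8.72% of those tested in DESeq2. At an unadjusted p under 0.05 in limma they gave 4816 of 16746 in either direction. Luc7l2, a U1-associated protein that acts in the choice of 5′ splice sites, fell 2.06-fold, from 1402 and 1594 to 695 and 753 normalized reads (log2 fold change -1.05 ± 0.15 SE, limma adjusted p 0.0218). It was 1 of 8 tested in the U1 and U2AF list, whose median was -0.17, and Luc7l3 was at -0.41 (limma adjusted p 0.0817). Luc7l2 passed again after length correction, at -0.97 with a limma adjusted p of 0.038, and 18.9% of its exon bases are shared with Gm26699. In the Prp19 list of 18 genes, Plrg1, a WD-repeat subunit, rose from 4020 and 3304 to 5523 and 7134, and Aqr, an RNA helicase of the intron-binding complex, fell from 2314 and 2478 to 1659 and 1615 (limma adjusted p 0.0396 and 0.0476). Of the helicases Ddx46, which acts at U2 binding, fell from 6339 and 6433 to 4452 and 4393 (limma adjusted p 0.0409), 1 of 7, and Ddx41 was at 0.34 (limma adjusted p 0.152). Prpf38a, needed for activation of the assembled spliceosome, rose 1.91-fold, from 4552 and 3862 to 6900 and 9279 (limma adjusted p 0.0299), 1 of 7 late step factors, and Prpf4b was at -0.49 (limma adjusted p 0.054). Of the minor spliceosome, which removes a rare class of introns, 0 of 10 passed in limma or edgeR and 2 in DESeq2 (limma unadjusted 3), with Zrsr2 at -0.43 and Snrnp25 at 0.45 (limma adjusted p 0.0825 and 0.0943). After length correction Plrg1, Aqr, Ddx46 and Prpf38a no longer passed (limma adjusted p 0.0902, 0.152, 0.295 and 0.0742).

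**Figure D4:**
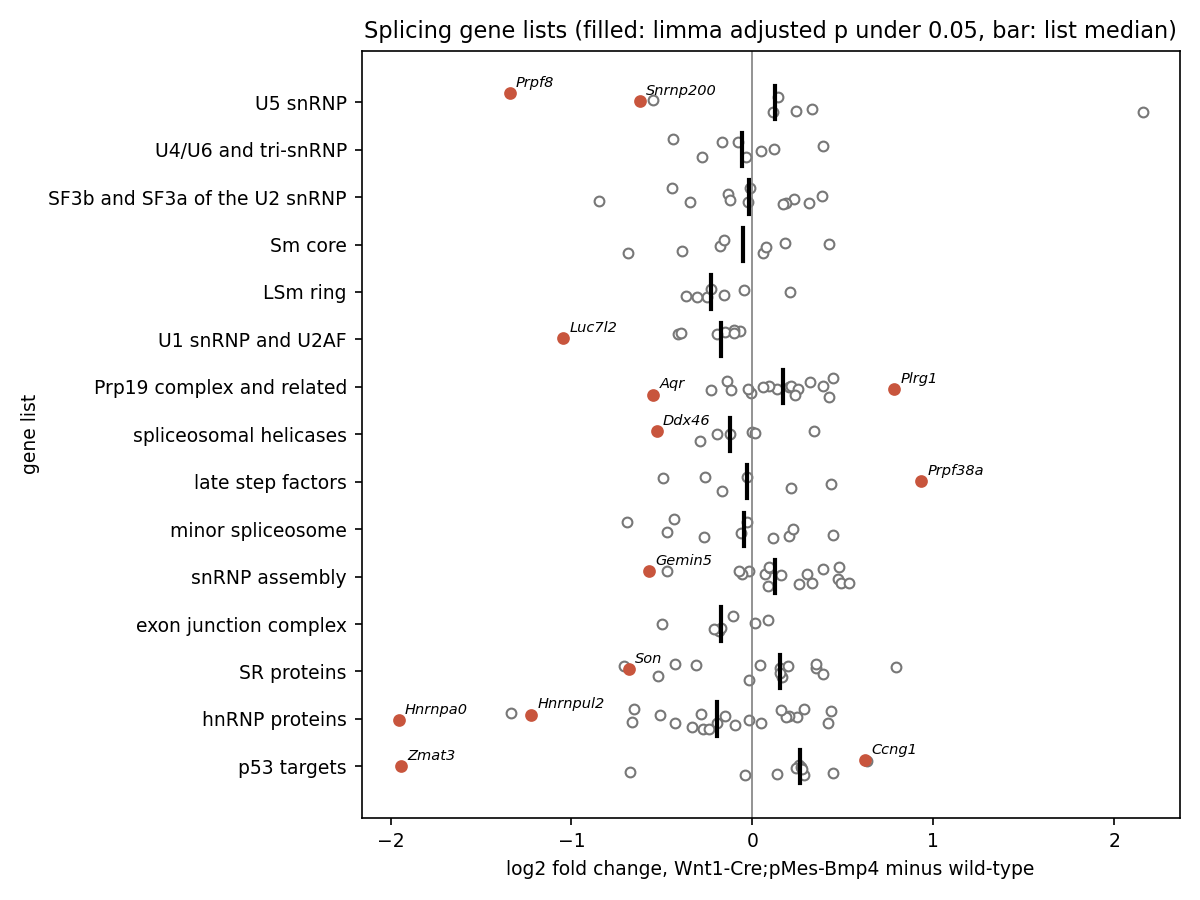
Log2 fold change (horizontal axis) of each gene in 15 lists of splicing-related genes and p53 targets (rows); filled red points passed the limma test, open points did not, and bars are list medians. Medians lie between -0.23 and 0.26, and Prpf8, Luc7l2, Hnrnpa0, Hnrnpul2 and Zmat3 are the called genes below -1.

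Outside the spliceosome proper, the assembly factors of snRNPs gave 1 lower and 0 higher of 18 in limma and edgeR, 2 and 1 in DESeq2, and 2 and 6 at an unadjusted p under 0.05 in limma. Gemin5, which recognises the small nuclear RNAs for the SMN complex, fell from 2063 and 2180 to 1463 and 1392 (limma adjusted p 0.0456), and Gemin2 of the same complex was at 0.53 (limma adjusted p 0.0684). The exon junction complex, deposited on spliced mRNA, gave 0 of 7 in limma or edgeR and 1 in DESeq2 (limma unadjusted 1), with Acin1 at -0.50 and Rbm8a at -0.21 (limma adjusted p 0.0885 and 0.286). Of the SR proteins, which promote exon recognition, 1 of 15 fell, Son, from 18117 and 18043 to 11688 and 10871 (limma adjusted p 0.0268), while edgeR called 1 lower, DESeq2 4, and 5 were lower and 1 higher at an unadjusted p under 0.05 in limma. Srrm1 of that list was at -0.52 (limma adjusted p 0.0521). Of the hnRNP proteins, which often act against SR proteins, 2 of 23 fell in limma and 0 rose. edgeR called 3 lower and 0 higher, DESeq2 5 lower and 2 higher, and 5 were lower and 3 higher at an unadjusted p under 0.05 in limma. The limma counts of these lists stand beside 5.28% lower and 2.97% higher of all genes. For edgeR the shares were 5.46% and 2.44%, and for DESeq2 11.1% and 8.72% of the genes it tested. At an unadjusted p under 0.05 in limma, all genes gave 4816 of 16746 in either direction. Hnrnpa0 was 3.88-fold lower, from 4921 and 5661 to 1701 and 1089 (limma adjusted p 0.0194), and Hnrnpul2 was 2.33-fold lower, from 916 and 1087 to 487 and 375 (limma adjusted p 0.0233). Both hnRNP genes passed again after length correction (limma adjusted p 0.0232 and 0.0465), whereas Gemin5 and Son did not (-0.22 and -0.14, limma adjusted p 0.348 and 0.557). Hnrnpr, named after its values were seen, was called higher after that correction (0.80, limma adjusted p 0.0459) and was at -0.02 before it. With either wild-type library left out, no gene of the whole table was called lower in limma (0 of 16746, with 3185 and 1806 genes at an unadjusted p under 0.05 in either direction).

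Loss of Eftud2 and other spliceosome proteins is known to activate p53 in the crest, so p53 targets were read as a list. Of 12 tested, 1 rose, 1 fell and 10 did not pass, beside 2.97% higher and 5.28% lower of all genes. edgeR called 0 higher and 1 lower, beside 2.44% and 5.46% of all genes. DESeq2 called 1 and 1, beside 8.72% and 11.1% of the genes it tested. At an unadjusted p under 0.05 in limma 2 were higher and 1 lower, beside 4816 of 16746 genes in either direction. The median log2 fold change of the p53 list was 0.26, or 0.089 after length correction. It ran from -0.011 without transgenic library 1 to 0.41 without transgenic library 2. Ccng1 rose from 771 and 710 to 1088 and 1192 (limma adjusted p 0.0498) and did not pass after length correction (limma adjusted p 0.0968) nor in 11 other alternatives of 20. Zmat3, itself a splicing regulator, fell from 321 and 454 to 110 and 88.5 (limma adjusted p 0.0211) and passed again after length correction (limma adjusted p 0.0409). Cdkn1a, the cell cycle inhibitor that p53 induces, read 1109 and 1123 in wild-type and 1603 and 1114 in the transgenic group and did not pass, nor did Mdm2, at 1166 and 1165 against 1390 and 1364.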

How the data were processed

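PolyA-selected RNA of 4 libraries was sequenced. The authors deposited 1 signal value for each gene and library. FeatureCounts made the underlying reads, per the file headers, and the values show division by 1 size factor in each library. Fastp 0.21.0 and mm10 come from the submitters' processing notes; aligner, annotation, strand setting and normalizing tool: not given in the sources used here. Division by the smallest positive value of each column gave whole reads for 100% of values (within 0.01).

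The main test was limma 3.58.1 (R 4.3.3, trended prior variance) on log2(value + 1) for genes whose mean was 10 or more, with Benjamini-Hochberg adjustment over all 16746 genes and a two-sided threshold of 0.05. Fold changes are transgenic minus wild-type on that scale, which understates low genes. There were 2 residual and 5.26 prior degrees of freedom; an exact permutation test of 2 against 2 cannot go below 0.333. The steps were tested on simulated data.

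The members, the 15 lists, the motifs and the alternatives were chosen with earlier results of these data known. Named were all members and, from each list, up to 4 genes past the threshold in order of p. Where fewer than 2 passed, the 2 genes of lowest p in the list were named. Cdkn1a, Mdm2, Twist1 and the genes under other observations were named outside this rule. For likeness to Prpf8, predicted genes and pseudogenes were left out. Lengths and coordinates came from GENCODE M21 (GRCm38), promoters from RefSeq (GRCm38.p6). The length correction used a spline with 4 degrees of freedom on log2 of the longest transcript, fitted where the mean was 50 or more; the other versions added GC content or used summed exon length. Count tests on the recovered reads were edgeR 4.0.16 (409 genes higher, 915 lower) and DESeq2 1.42.0.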

Additional observations from a re-analysis of the deposited data

How the results depend on the processing

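Counts of calls are given as lower and higher among the 10 members, the 93 spliceosome genes and all genes, where the main values were 2 and 0, 5 and 2, and 884 and 498. With length correction they were 1 and 0, 2 and 0, and 162 and 107; with length and GC correction 1 and 0, 9 and 3, and 741 and 645; with summed exon length 1 and 0, 1 and 1, and 430 and 303. DESeq2 gave 3 and 0, 12 and 6, and 1573 and 1234, and quantile scaling raised the spliceosome genes called lower to 8. Robust hyperparameters gave 809 genes higher. limma without the trend gave 0 in all counts, with 3925 genes at an unadjusted p under 0.05. A threshold of 0.1 gave 12 and 7 spliceosome genes and 1726 and 1307 genes, and one of 0.01 gave 0 throughout.

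With 1 library left out, the members called ran from 0 to 3 lower and 0 to 1 higher, the spliceosome genes from 0 to 17 lower and 0 to 15 higher, and all genes from 0 to 2719 lower and 0 to 2675 higher. The lone library left in a group is assumed to vary like the other group. The lowest counts came from leaving out a wild-type library; 1 gene was higher without wild-type replicate 2.

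The labels number the libraries in each group but do not say that a number is shared, so no pairs were taken. The deviations of same-numbered libraries correlated at -0.266 over 12411 genes, which does not show whether they were paired. The replicate block gave 1 and 0 members, 2 and 1 spliceosome genes and 543 and 165 genes; Snrnp200 then had a limma adjusted p of 0.0932. With the length correction as well the replicate block gave 1 and 0, 3 and 1, and 352 and 238. The crossed pairing, added after seeing the data as was the previous fit, gave 3 and 1, 15 and 11, and 1952 and 1763.

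Signs turned only in 3 members that passed in neither setting. Prpf3 was at -0.043 with quantile scaling, -0.11 with length correction, with or without the replicate block, and -0.17 with GC added, and ran from -0.054 to 0.15 with a library left out. Sf3b4 ran from -0.20 to 0.14 with a library left out. Snrpb was at -0.033 with length correction, with or without the replicate block, -0.044 with GC added and -0.0092 with summed exon length, and ran from -0.079 to 0.44 with a library left out. The log2 fold change of Prpf8 was below 0 in all 20 alternatives. They reuse the libraries whose fall chose it, so nothing is read from this.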

Other observations

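At least 4-fold differences between the transgenic libraries were found in 2 genes of the spliceosome lists, and Hnrnpu of the hnRNP list also differed widely. Snrnp40, a WD-repeat protein of U5, had 114 and 122 normalized reads in the wild-type libraries and 123 and 2282 in transgenic libraries 1 and 2. Usp39 of the tri-snRNP read 398 and 373 in wild-type and 77.9 and 1500 in the transgenic libraries. Hnrnpu, an hnRNP protein, read 7510 and 7506 in wild-type and 1133 and 7834 in the transgenic libraries. These 3 genes were picked after their values were seen.

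Other core genes were listed near 0 although all cells use them. Snrpf of the Sm ring read 13.4 and 19.5 in wild-type and 8.53 and 10.9 in the transgenic libraries, and 85.4% of its exon bases are shared with 4933408J17Rik and Ccdc38. Sf1, which binds the branch site, was listed between 0 and 3.09 in the 4 libraries with 1.13% of its exon bases shared, and was not tested. Gemin4 read 43 and 50.4 against 41.6 and 50.9, with 91.3% of its exon bases shared with neighbours.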
